A study of Felis catus with 6 samples.

Results

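CD8A, GZMA, GZMB and TBX21, 4 genes of cytotoxic lymphocytes, were compared between inflamed and healthy oral mucosa of cats with feline chronic gingivostomatitis (FCGS), a chronic immune-mediated inflammation of the mouth. The 4 genes were chosen by symbol out of 21529 Ensembl identifiers measured in every library. Their symbols came from the supplementary table of the study, whose values matched 1 identifier each, ENSFCAG00000014826 for CD8A, ENSFCAG00000008180 for GZMA, ENSFCAG00000002893 for GZMB and ENSFCAG00000010607 for TBX21. Symbols could be given to 1929 identifiers in this way. That table holds only genes at least 2-fold different on average between the tissues, so the size of a mean difference was in part a condition for having a name, and a gene without a symbol has no value here.

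Each of 3 cats, named Bart, Jerome and Sadie in the labels, gave 1 biopsy of a lesion (diseased, inflammatory) and 1 of adjacent mucosa (healthy, normal), which made 6 stranded mRNA libraries. The healthy mucosa therefore came from cats with the disease and not from healthy cats. The FCGS cats of the study had all lost their teeth, were negative for FIV and FeLV, and received buprenorphine but no immunosuppressive drug or antibiotic. The age, sex and lesion score of these 3 cats are not given in the labels, and the labels call the tissue gingival whereas the design text places it lateral to the palatoglossal folds.

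CD8A encodes the alpha chain of the CD8 coreceptor, by which T cells bind MHC class I on the cell they recognize. It is carried by cytotoxic T cells and, in some species, by part of the natural killer cells and dendritic cells. Cytotoxic T cells and natural killer cells store granzymes in granules and release them with perforin into the target cell. Granzyme A (GZMA) cuts after basic residues, and granzyme B (GZMB) cuts after aspartate and activates caspases. T-bet (TBX21) is the T-box transcription factor of type 1 lymphocytes, which drives interferon gamma and takes part in the effector program of CD8 T cells and natural killer cells.

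Levels were in FPKM (fragments counted per kilobase of a transcript and rescaled between libraries), so that levels of different genes could be set side by side. Differences between tissues were taken on log2 values after FPKM below 1 had been raised to 1, which makes the change of weak genes look smaller. The test, limma, covered the 13327 identifiers that reached 1 FPKM in 3 or more libraries, fitted with the cat as a block, that is, lesion against healthy mucosa within each animal. P-values were adjusted over all 13327, and a gene is said to have risen or fallen at an adjusted p under 0.05. The separate biopsies are 1 per tissue and cat, so the error is that between cats.

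TBX21, CD8A and GZMA rose in FCGS lesions, in every cat and at least 2-fold in every cat, whereas GZMB was higher in Bart and Jerome and lay under 1 FPKM in both tissues of Sadie. TBX21 rose most, by 5.49-fold, followed by GZMA with 3.46-fold and CD8A with 2.82-fold. Of the 4 genes, 3 passed the test, against 12.2% of all 13327 identifiers called higher in lesions (11.1% were called lower and 23.2% in either direction). Without the cat as a block 0 of the 4 passed (2 at an unadjusted p under 0.05), against 5.31% of all identifiers higher and 6.61% lower. In that fit 4213 of 13327 identifiers had an unadjusted p under 0.05, in either direction. Among the 1292 identifiers with a symbol and a positive difference, 68.9% were called, so 3 of 4 is close to the share among genes named in this way. A gain of at least 2-fold in every cat was seen for 8.81% of all identifiers and for 54.3% of those with a symbol and a positive difference. Each call also rested on single cats and on the filter. Without Bart, GZMA and TBX21 passed narrowly (adjusted p = 0.0496 for both, limma) and CD8A did not (0.0524), none of the 3 passed without Jerome (0.0647, 0.0585 and 0.0814) or without Sadie (0.106, 0.106 and 0.110), and none passed when weakly expressed identifiers were kept (0.0859, 0.0859 and 0.0928).

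**Figure D1:**
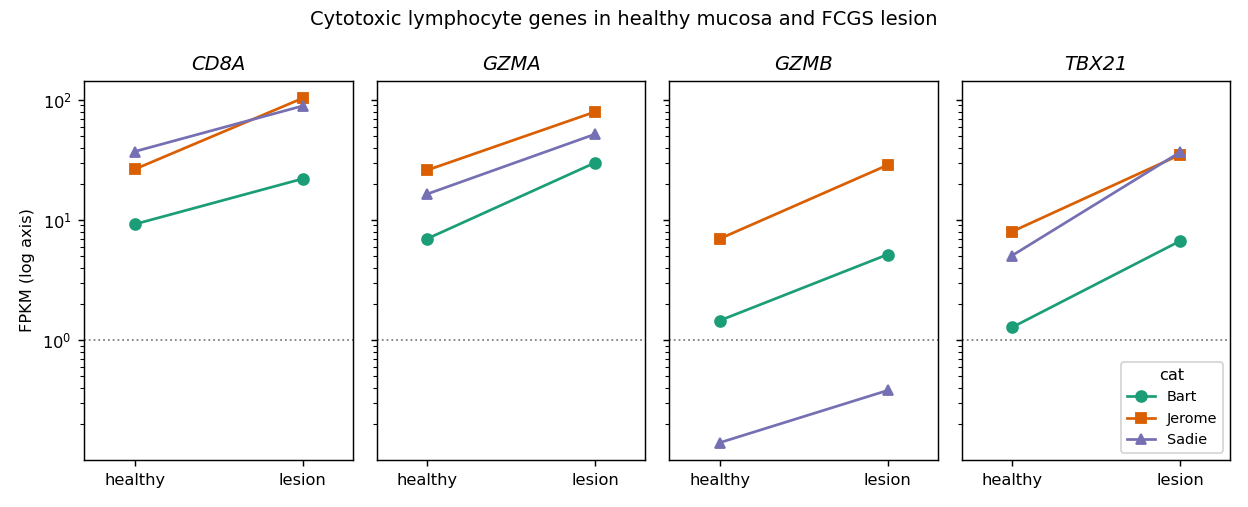
FPKM (log axis) of CD8A, GZMA, GZMB and TBX21 in healthy mucosa and lesion, with 1 line per cat (3 cats). Lines rise in every panel, Bart lies lowest for CD8A, GZMA and TBX21, and both GZMB values of Sadie lie under the dotted line at 1 FPKM, the level to which lower values were raised before log2.

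TBX21 measured 6.68 FPKM in the lesion of Bart, 34.9 FPKM in that of Jerome and 36.7 FPKM in that of Sadie. In healthy mucosa it measured 1.28 FPKM in Bart, 8.01 FPKM in Jerome and 5.06 FPKM in Sadie. The lesions of Jerome and Sadie thus lay above every healthy library, whereas the lesion of Bart lay below the healthy mucosa of Jerome. Within a cat the gain was 5.23-fold in Bart, 4.36-fold in Jerome and 7.26-fold in Sadie. The log2 difference was 2.46 (standard error 0.22, adjusted p = 0.0216 from limma), higher than that of 97.6% of the identifiers tested. Because the cats differed by up to 5.50-fold in lesions and 6.27-fold in healthy mucosa, the call rested on the pairing, and without the cat as a block the adjusted p was 0.135.

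GZMA measured 30.0 FPKM in the lesion of Bart, 79.6 FPKM in that of Jerome and 51.8 FPKM in that of Sadie. Its values in healthy mucosa were 6.97 FPKM in Bart, 26.0 FPKM in Jerome and 16.4 FPKM in Sadie. GZMA was the only one of the 4 genes whose tissues did not overlap, as the lowest lesion, that of Bart, exceeded the highest healthy library, that of Jerome. Such a separation was seen for 16.7% of all identifiers tested and for 68.0% of those with a symbol and a positive difference. The gain was 4.30-fold in Bart, 3.06-fold in Jerome and 3.15-fold in Sadie, and the log2 difference was 1.79 (standard error 0.18, adjusted p = 0.0216). Without the block the adjusted p was 0.0935 (0.0204 unadjusted).

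CD8A was the most abundant of the 4 genes in lesions on average, at 71.4 ± 43.4 FPKM (SD, n = 3 cats), against 24.3 ± 14.1 FPKM in healthy mucosa. It measured 22.0 FPKM in the lesion of Bart, 103 FPKM in that of Jerome and 89.1 FPKM in that of Sadie. Its values in healthy mucosa were 9.21 FPKM in Bart, 26.4 FPKM in Jerome and 37.2 FPKM in Sadie. The lesion of Bart held less CD8A than the healthy mucosa of either other cat, so the tissues overlapped although every cat gained. The gain was 2.39-fold in Bart, 3.91-fold in Jerome and 2.40-fold in Sadie, or 1.49 on the log2 scale (adjusted p = 0.0241, standard error 0.21). Without the block the adjusted p was 0.242.

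The 3 libraries with the most CD8A were the lesion of Jerome, the lesion of Sadie and the healthy mucosa of Sadie, and the same 3 libraries were the highest for each of the 12 skeletal muscle genes examined, those with a symbol in a list of 13. CKM, muscle creatine kinase, stood at 1234 FPKM, 1041 FPKM and 716 FPKM in them and 1.33 FPKM or less in the others. Summed over the 12 muscle genes, lesions ranged from 30.4 to 5462 FPKM and healthy libraries from 8.53 to 2411 FPKM. In Bart, whose libraries both held little muscle RNA, CD8A, GZMA and TBX21 gained 2.39-fold, 4.30-fold and 5.23-fold. CD3E and NKG7 had the same 3 highest libraries as CD8A, whereas GZMA, TBX21 and CD4 did not. The part of muscle tissue in the differences between cats was not tested.

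GZMB gained 3.55-fold in Bart, reaching 5.16 FPKM from 1.45 FPKM. In Jerome it gained 4.11-fold, from 6.98 FPKM to 28.6 FPKM. In Sadie lesion and healthy mucosa held only 0.380 FPKM and 0.140 FPKM, both raised to 1 before log2, so this cat counted as a difference of 0. The log2 difference over the 3 cats was 1.29 (standard error 0.49, adjusted p = 0.132 from limma), and GZMB did not pass the test. With 0.1 FPKM added to every value in place of the floor, all 3 cats were higher in lesions, the log2 difference was 1.60 and the adjusted p was 0.0408. The call of GZMB therefore depended on how values under 1 FPKM were treated in 1 cat.

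The low GZMB of Sadie was not shared by GZMA or NKG7. In the same 2 libraries GZMA measured 51.8 FPKM and 16.4 FPKM, and NKG7, a granule membrane protein of cytotoxic cells, 94.5 FPKM and 37.8 FPKM. The lesions differed by 75.3-fold in GZMB between the highest and the lowest cat and healthy mucosa by 50.0-fold, against 2.65-fold and 3.73-fold in GZMA. In an inspection made after these values were seen, 7 of 13327 identifiers (0.0525%) had both values of Sadie more than 3-fold below the lowest value in the other cats, and GZMB was one of them and the only one with a symbol. The same count was 64 identifiers (0.480%) for Bart and 7 for Jerome, so such gaps were more frequent in another cat. In the RefSeq annotation of the assembly Fca126, GZMB lies close to GZMH, a related granzyme. Whether reads were shared between these paralogs was not tested, so the level of GZMB is uncertain to that extent.

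The order of the mean levels in lesions was CD8A, GZMA (53.8 ± 24.8 FPKM), TBX21 (26.1 ± 16.8 FPKM) and GZMB (11.4 ± 15.1 FPKM, all SD, n = 3 cats). The means of CD8A and GZMA, and those of TBX21 and GZMB, lay closer together than the larger of their SDs. GZMA exceeded TBX21 by slightly more than that. These SDs describe the spread between cats and not that of 2 genes within a library. Within each lesion GZMA exceeded TBX21 and TBX21 exceeded GZMB, the latter narrowly in Bart (6.68 against 5.16 FPKM). CD8A lay below GZMA in the lesion of Bart (22.0 against 30.0 FPKM) and above it in the other lesions. In healthy mucosa the means had the same order, with 16.5 ± 9.51 FPKM for GZMA, 4.78 ± 3.38 FPKM for TBX21 and 2.86 ± 3.63 FPKM for GZMB (SD, n = 3). There GZMB lay above TBX21 in Bart (1.45 against 1.28 FPKM). In bulk tissue, more cytotoxic cells and more RNA per cell cannot be told apart.

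Ratios within a library were used to ask whether the 4 genes moved beyond CD8A or beyond the CD3 chains of the T cell receptor complex. TBX21 relative to CD8A was higher in the lesion of every cat, at 0.303 against 0.139 in Bart, 0.338 against 0.303 in Jerome and 0.412 against 0.136 in Sadie. The mean difference of the log2 ratio was 0.96 ± 0.73 (SD, n = 3), with p = 0.25 in an exact two-sided sign-flip permutation test, the smallest p that 3 pairs allow (0.875 adjusted over the 7 ratios tested). GZMA relative to CD8A was higher in the lesion of Bart (1.36 against 0.757) and of Sadie (0.582 against 0.443) and lower in that of Jerome (0.771 against 0.983). CD8A relative to CD3E, an invariant chain of the receptor complex, stayed between 0.574 and 1.14 in all 6 libraries, with a mean log2 difference of 0.03 ± 0.33 (SD, n = 3, exact permutation p = 1). Relative to CD3D and CD3G, CD8A was lower in the lesions of Bart and Sadie and higher in that of Jerome, with mean log2 differences of -0.44 ± 0.94 and -0.84 ± 1.18 (exact permutation p = 0.5 for both). None of the 7 ratios could pass a threshold of 0.05 with 3 pairs.

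The ratio of CD4 to CD8A bears on the CD4/CD8 ratio that the study counted in blood, although transcripts in tissue are another measure than cells in blood. The paper also labeled both antigens in FCGS lesions and describes CD4 and CD8 cells there as about equally frequent in the lamina propria. The levels of the 2 transcripts are not numbers of cells, so the ratios below do not show which cell was more frequent. CD4, the coreceptor of helper T cells and also present on macrophages of some species, rose in lesions and measured 2.91, 9.58 and 7.32 FPKM in the lesions of Bart, Jerome and Sadie against 0.404, 4.16 and 2.59 FPKM in their healthy mucosa (log2 difference 1.41, standard error 0.20, adjusted p = 0.0243, or 0.213 without the block). CD4 was below CD8A in every library, with a ratio of 0.132, 0.0928 and 0.0822 in the lesions of Bart, Jerome and Sadie and 0.0439, 0.157 and 0.0697 in their healthy mucosa. The ratio was higher in the lesion of 2 cats and lower in that of Jerome, so no common direction was seen. Its mean log2 difference was -0.08 ± 0.59 with the floor (SD, n = 3, exact permutation p = 1) and 0.25 with 0.1 FPKM added, as CD4 lay under the floor in healthy mucosa of Bart.

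GZMB relative to CD8A was far lower in both tissues of Sadie, where GZMB lay under 1 FPKM, than in the other cats. The lesion of Bart lay closer to both libraries of Jerome than to its own healthy mucosa. The ratio was 0.234 in the lesion and 0.158 in healthy mucosa of Bart, 0.277 and 0.264 in Jerome, and 0.00427 and 0.00376 in Sadie. NKG7 relative to CD8A, looked at after the values were seen, lay between 1.02 and 1.45 in all 6 libraries, the narrowest range of the 7 ratios plotted. GZMK, a granzyme of memory CD8 T cells, was between 0.509 and 0.825 of CD8A in Bart and Sadie but 0.215 and 0.235 in Jerome.

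**Figure D2:**
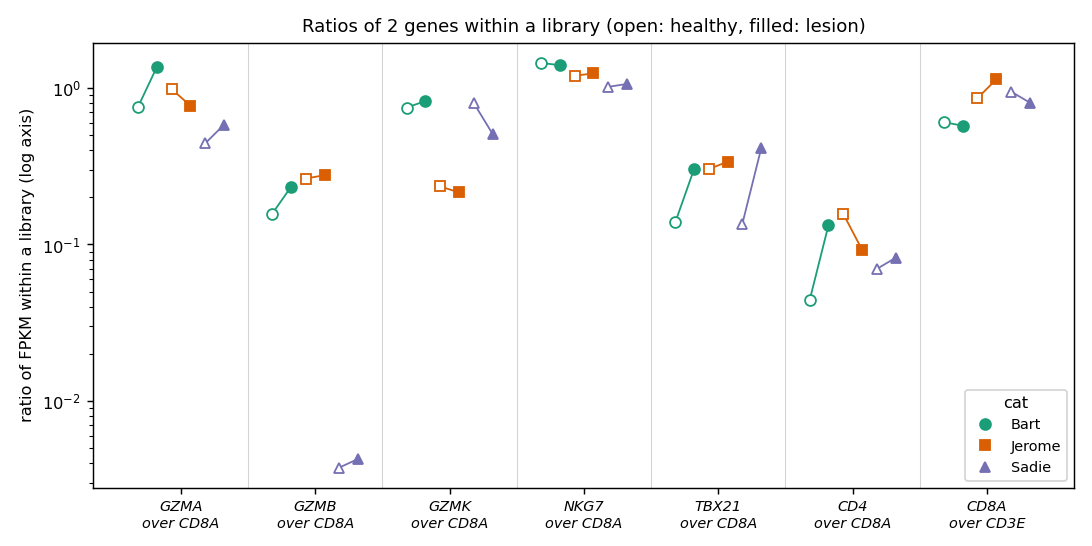
Ratio of the FPKM of 2 genes within a library (log axis) for 7 pairs of genes, with healthy mucosa (open) and lesion (filled) of each of 3 cats joined by a line. GZMB over CD8A of Sadie lies at 0.00376 and 0.00427, far below the other cats, and NKG7 over CD8A is the tightest group.

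The genes most like each of the 4 over the 6 libraries were sought among identifiers with a symbol, by Pearson correlation of the log2 values. These correlations describe 6 libraries of 3 cats that share cat and tissue differences, and carry no test. CD8A was closest to CARNS1 (r = 0.99), NKG7 (r = 0.99), LCK, the kinase bound to CD4 and CD8, and CXCR6, a chemokine receptor of tissue T cells (r = 0.98), and NKG7 and CXCR6 ordered the 6 libraries exactly as CD8A did (Spearman's rho = 1). GZMA was closest to ITGAL, the LFA-1 integrin chain, NCR3, an activating receptor of natural killer cells, LAT, the adaptor of the T cell receptor, GIMAP6 and RASSF4 (r = 0.99 for each). TBX21 was closest to MAP4K1 (r = 0.997), ZAP70, CD2, YDJC and RLTPR (r = 0.99 for the last). GZMB was closest to GPR84 (r = 0.87), RSAD2 (r = 0.83), BATF3 (r = 0.82), IFNG (r = 0.80) and IFIT3 (r = 0.78), with no receptor of T or natural killer cells among them. Between the members, r was 0.97 for GZMA with TBX21, 0.96 for CD8A with TBX21 and 0.90 for CD8A with GZMA, against 0.30 to 0.57 for GZMB with the other three. At or above the fifth named gene stood 18 identifiers for CD8A, 9 for GZMA, 15 for TBX21 and 86 for GZMB, of which 5 each had a symbol.

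CD8A stood in a list of 17 coreceptors and genes of the T cell receptor complex, of which 14 had a symbol and all 14 rose in FCGS lesions and were higher in every cat. By comparison, 68.9% of identifiers with a symbol and a positive difference were called. Of all identifiers 12.2% were called higher and 28.6% were higher in every cat. The 14 genes had a median log2 difference of 1.48, against -0.07 over all identifiers tested and 1.26 over those with a symbol. CD3E measured 38.3, 90.9 and 110 FPKM in the lesions of Bart, Jerome and Sadie and 15.2, 30.7 and 39.2 FPKM in their healthy mucosa, so the lesion of Bart again lay below a healthy library. CD3E rose by 1.46 on the log2 scale (adjusted p = 0.0216, standard error 0.14), against 1.49 for CD8A. CD3G (2.33, standard error 0.36) and CD3D (1.93, standard error 0.25) showed larger differences than CD3E on the same scale. LCK rose 2.84-fold and ZAP70, the kinase recruited to the CD3 chains, 2.49-fold. The largest differences besides CD3G were those of LCP2, an adaptor shared with myeloid cells, at 2.24, and CD28, the costimulatory receptor, at 2.20. Without the block 2 of the 14 passed limma, LCP2 (adjusted p = 0.0301) and CD28 (adjusted p = 0.0275), and 8 had an unadjusted p under 0.05. In that fit 5.31% of all identifiers were called higher, and 31.5% of named ones with a positive difference were called. An unadjusted p under 0.05 was seen there for 4213 of 13327 identifiers. CD8B, the second chain of the CD8 heterodimer, had no symbol and was not analysed here.

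GZMA and GZMB stood in a list of 24 granzymes and other effector molecules, of which 12 had a symbol, 8 rose and none fell (0 rose without the block, 4 of the 12 at an unadjusted p under 0.05). A count of 8 in 12 is near the 68.9% called among identifiers with a symbol and a positive difference, and 12.2% of all identifiers were called higher. Without the block these shares were 31.5% and 5.31%, and 4213 of 13327 identifiers had an unadjusted p under 0.05. The 12 genes had a median log2 difference of 1.29, about that of identifiers with a symbol. NKG7 measured 30.8, 128 and 94.5 FPKM in the lesions of Bart, Jerome and Sadie against 13.3, 31.7 and 37.8 FPKM in healthy mucosa, a log2 difference of 1.52 (adjusted p = 0.0244). GZMK measured 18.2, 22.2 and 45.3 FPKM in these lesions and 6.91, 6.21 and 29.7 FPKM in healthy mucosa. Unlike GZMB, it was highest in Sadie, and it rose 2.43-fold (adjusted p = 0.0478, near the threshold). CST7 (cystatin F, which inhibits the proteases that activate granzymes) rose by 1.29 and CTSW (cathepsin W of cytotoxic cells) by 1.00 on the log2 scale. LTB, a lymphotoxin chain, and TNF rose by 1.42 and 1.03, and FAS, the death receptor on target cells, by 1.47. IFNG was at 1.84 (adjusted p = 0.0601), with 6.92, 11.8 and 4.49 FPKM in lesions and 1.05, 7.59 and 0.845 FPKM in healthy mucosa of Bart, Jerome and Sadie. IFNG, GZMB, LTA (adjusted p = 0.144) and UNC13D, a factor of granule release (adjusted p = 0.0838), were the 4 that did not pass. PRF1, GNLY and FASLG had no symbol.

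TBX21 had the largest log2 difference of the 6 transcription factors with a symbol, out of 14 listed, and 5 of the 6 rose. This compares with 68.9% called among identifiers with a symbol and a positive difference and 12.2% among all. Without the block TBX21 and RUNX3 did not pass, whereas STAT4 (adjusted p = 0.0484) and HLX (0.041) did. RUNX3, a factor of the CD8 lineage, measured 16.4, 33.8 and 38.3 FPKM in the lesions of Bart, Jerome and Sadie against 7.85, 13.4 and 10.8 FPKM in healthy mucosa, with no overlap (log2 difference 1.41, adjusted p = 0.0255). ZNF683, the factor Hobit of tissue-resident and natural killer cells, rose by 1.21, STAT4, which signals from the IL12 receptor, by 1.53 on the log2 scale. TOX is counted among the 5, but it was under 1 FPKM in all 3 healthy libraries (0.209, 0.800 and 0.828 FPKM in Bart, Jerome and Sadie) and was tested only because its lesions reached 2.33, 2.66 and 2.30 FPKM, so its calls with and without the block are no support. HLX, a homeobox factor that acts with T-bet, was at 1.70 (adjusted p = 0.0525). EOMES, the T-box relative of T-bet, had no symbol.

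**Figure D3:**
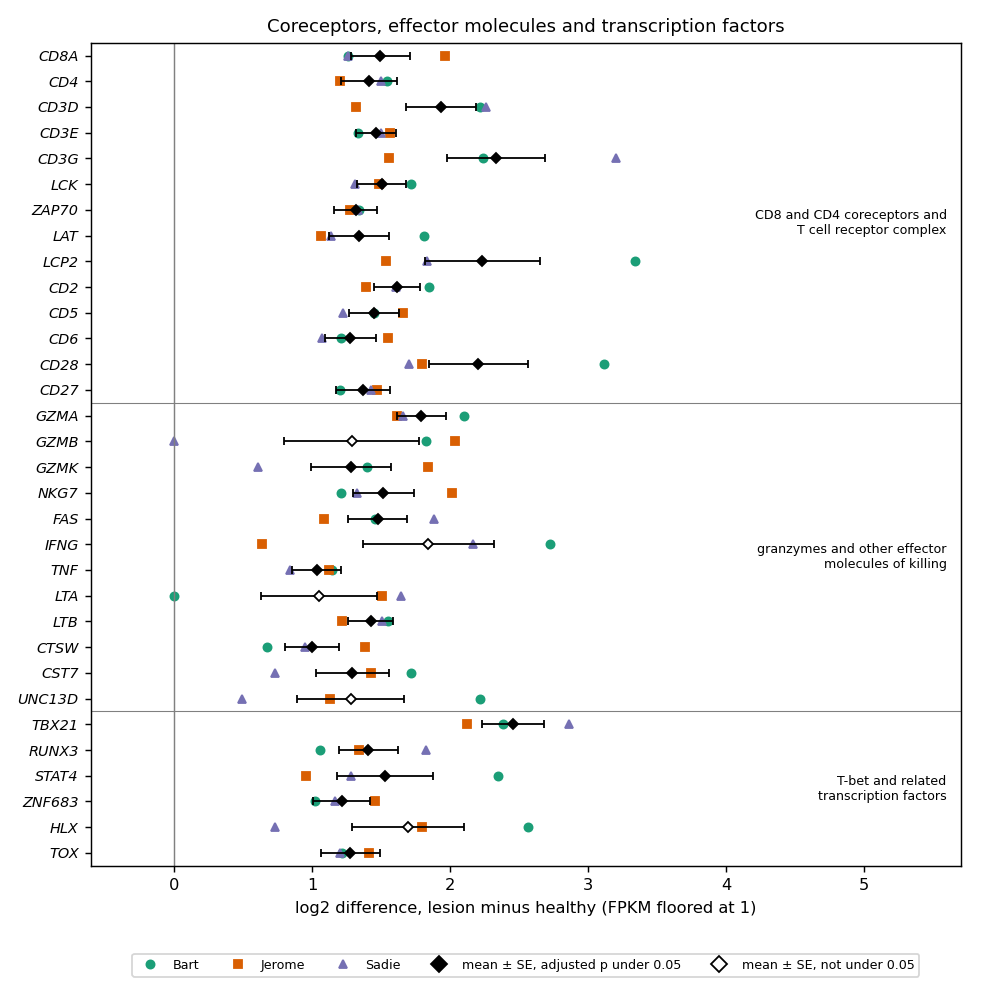
Log2 difference of lesion minus healthy mucosa (horizontal axis) for 32 genes of 3 lists, as 1 coloured point for each cat. Black diamonds with bars give the mean and standard error of the limma fit, filled where the adjusted p was under 0.05. TBX21 stands furthest right among the transcription factors, and the point of Sadie for GZMB lies at 0.

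Cytokine receptors of type 1 lymphocytes were higher in the lesion of every cat for 9 of 9 members with a symbol, out of 12 listed, and 6 rose (0 without the block, 9 at an unadjusted p under 0.05). Again, 6 of 9 is near the 68.9% among named identifiers with a positive difference. Of all identifiers 12.2% were called higher, and 28.6% were higher in every cat. Without the block 31.5% of named identifiers with a positive difference were called, and 5.31% of all were called higher. In that fit 4213 of 13327 identifiers had an unadjusted p under 0.05. IL18R1 was under 1 FPKM in all 3 healthy libraries (0.847, 0.810 and 0.667 FPKM in Bart, Jerome and Sadie). It was tested only because its lesions reached 9.12, 2.26 and 1.74 FPKM, so its place in these counts is no support. IL12RB1, a chain of the IL12 receptor upstream of STAT4 and T-bet, measured 7.90, 23.1 and 26.1 FPKM in the lesions of Bart, Jerome and Sadie against 1.45, 6.00 and 4.65 FPKM in healthy mucosa. Its log2 difference was 2.29 (standard error 0.21, adjusted p = 0.0216), next to that of TBX21. IL2RB, the chain through which IL2 and IL15 act on CD8 T cells and natural killer cells, rose by 1.83, IL2RG by 1.95, IL21R by 2.66 and IL15RA by 1.85 on the log2 scale. IL18RAP, a chain of the IL18 receptor, rose by 2.74 but measured 29.1 FPKM in the lesion of Bart, 7.86 FPKM in that of Jerome and 4.21 FPKM in that of Sadie, so that Bart was highest here and lowest for CD8A and TBX21. IL2RA (CD25) missed the threshold narrowly (log2 difference 1.99, adjusted p = 0.0501), as did IL18R1 (1.72, adjusted p = 0.0957) and IL7R (1.43, adjusted p = 0.128) by more.

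Of 17 homing receptors and integrins, 12 had a symbol and 10 rose, 7 of the 12 also without the block. The shares among identifiers with a symbol and a positive difference were 68.9% with and 31.5% without the block, and those of all identifiers called higher 12.2% and 5.31%. CXCR3, the receptor for interferon-induced chemokines and a target of T-bet, measured 7.13, 29.0 and 42.4 FPKM in the lesions of Bart, Jerome and Sadie and 2.19, 4.87 and 10.7 FPKM in healthy mucosa (log2 difference 2.09, adjusted p = 0.0216). CXCR6 was at 1.34 (adjusted p = 0.0583). ITGAL and ITGB2, the chains of LFA-1, by which killer cells hold their targets, rose by 2.10 and 2.35 on the log2 scale. In the lesions of Bart, Jerome and Sadie ITGAL measured 25.9, 78.4 and 63.5 FPKM, but ITGB2 151, 154 and 133 FPKM. CD69, a marker of recent activation and of tissue residence, rose by 2.66, with 54.1 ± 10.2 FPKM in lesions and 8.80 ± 2.95 FPKM in their healthy counterparts (SD, n = 3). S1PR1, the receptor by which lymphocytes leave tissue, rose by 2.15 (adjusted p = 0.0216), while CCR7, the lymph node homing receptor of naive and central memory T cells, was at 2.03 (adjusted p = 0.102). S1PR1 was highest in the lesion of Bart, where CD8A was lowest, at 136 FPKM against 53.4 FPKM in Jerome and 68.4 FPKM in Sadie. Bulk RNA does not assign S1PR1 or ITGB2 to lymphocytes.

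Of 18 natural killer cell receptors and adaptors, 8 had a symbol, 7 rose and all 8 were higher in the lesion of every cat (2 passed without the block, 5 at an unadjusted p under 0.05). Of identifiers with a symbol and a positive difference 68.9% were called (31.5% without the block). Over all identifiers 12.2% were called higher (5.31% without the block) and 28.6% were higher in every cat. Without the block 4213 of 13327 identifiers had an unadjusted p under 0.05. KLRF1 (NKp80) measured 4.33, 16.9 and 16.8 FPKM in the lesions of Bart, Jerome and Sadie against 0.590, 5.15 and 5.12 FPKM in healthy mucosa (log2 difference 1.85, adjusted p = 0.0216). NCR3 (NKp30) rose by 1.53, SH2D1A, the adaptor SAP, by 1.93, and CD244 by 1.11 on the log2 scale. TYROBP, an adaptor shared with myeloid cells and the most abundant member, reached 489 ± 127 FPKM in the lesions, and healthy mucosa held 125 ± 67.7 FPKM (SD, n = 3, adjusted p = 0.0437). CD160 was at 1.04 (adjusted p = 0.128).

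**Figure D4:**
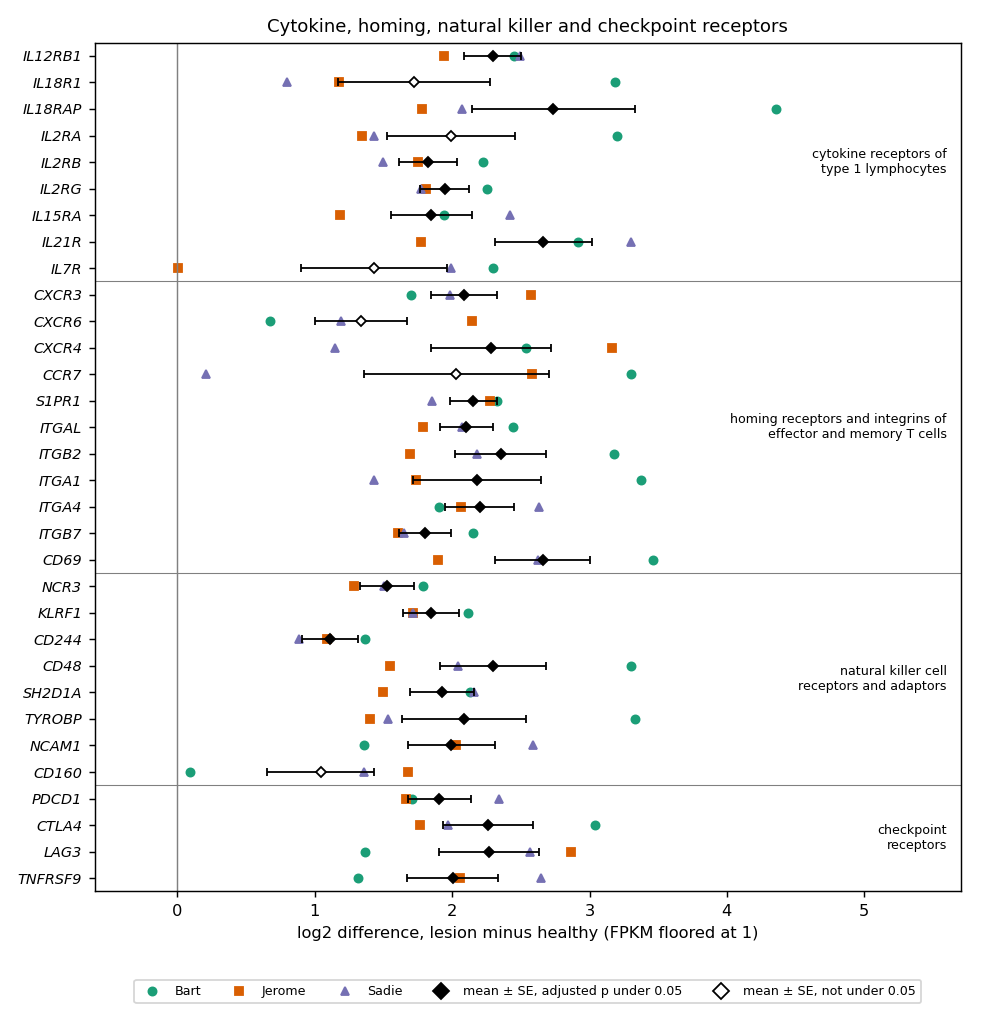
Log2 difference of lesion minus healthy mucosa (horizontal axis) for 32 receptors and adaptors of 4 lists, as 1 coloured point for each cat. Black diamonds with bars give the mean and standard error of the limma fit, filled where the adjusted p was under 0.05. IL12RB1 is tight around 2.29, whereas IL18RAP and CD69 have their largest gain in Bart.

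The study also counted CD8 T cells and their memory and activation states in blood by cytometry. Those counts were made on blood of FCGS cats and of healthy control cats that the labels do not link to Bart, Jerome or Sadie, so blood and mucosa were compared by antigen only, and blood values were not used here. Of the 10 genes that encode the antigens, 9 had a symbol, 8 rose and all 9 were higher in the lesion of every cat (2 passed without the block, 7 at an unadjusted p under 0.05). Beside these counts stand 68.9% called among named identifiers with a positive difference, 12.2% called higher among all, and 28.6% of all higher in every cat. Without the block the shares called were 31.5% and 5.31%, and 4213 of 13327 identifiers had an unadjusted p under 0.05. PTPRC (CD45) measured 18.2, 16.6 and 17.8 FPKM in the lesions of Bart, Jerome and Sadie against 2.58, 6.52 and 4.48 FPKM in healthy mucosa (log2 difference 2.05, adjusted p = 0.0284). FOXP3, the factor of regulatory T cells, rose from 1.56 ± 0.564 FPKM to 3.89 ± 1.18 FPKM (SD, n = 3, adjusted p = 0.0271). PTPRC also encodes other isoforms than the CD45R stained in blood. CD45 is also carried by B cells, neutrophils and monocytes, and bulk RNA does not assign it to CD8 T cells.

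Markers of other cells moved with the lesions as well. Of 7 B cell markers with a symbol 6 rose (3 without the block, CD22 included, which was under 1 FPKM in all 3 healthy libraries), and the summed level of the 7 ranged from 205 to 1367 FPKM in lesions and from 87.9 to 200.3 FPKM in healthy mucosa. The other one, BLNK, which was lower in the lesion of every cat (log2 difference -1.24, adjusted p = 0.0691), made up 73.6, 99.5 and 114 FPKM of the healthy sums in Bart, Jerome and Sadie. Of 7 myeloid markers 6 rose (5 without the block), with summed levels of 387 to 874 FPKM against 83.0 to 190 FPKM. The shares called among all identifiers were 12.2% higher and 11.1% lower, and 68.9% among named ones with a positive difference. Without the block these shares were 5.31%, 6.61% and 31.5%. Of 4 epithelial markers 3 fell, among them EZR from 603 ± 68.7 FPKM to 183 ± 32.5 FPKM (SD, n = 3). TGM5, another of the 3, was under 1 FPKM in all 3 lesions (0.0813, 0.425 and 0.556 FPKM in Bart, Jerome and Sadie). It was tested only because its healthy mucosa reached 7.50, 2.86 and 6.53 FPKM, so its call is no support. KRT4 went both ways, with 8.99 FPKM in the lesion of Bart against 2089 FPKM in healthy mucosa. Jerome had 2534 FPKM and Sadie 569 FPKM of KRT4 in the lesion, and both were listed at 0 in healthy mucosa. Over the 14 genes of the T cell receptor list the summed level was 339 to 816 FPKM in lesions and 89.0 to 247 FPKM in healthy mucosa. The median log2 difference was 3.06 for the B cell markers, 2.29 for the myeloid markers and 1.48 for the T cell receptor list. The part of the changed cell mixture in the differences of CD8A, GZMA, GZMB and TBX21 was not tested.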

How the data were processed

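RNA of 3 lesions and 3 healthy biopsies from 3 cats was analysed as deposited. The authors deposited FPKM per Ensembl identifier, 1 library per file, which, by the submitters' processing notes, came from bcl2fastq, HISAT, then Cufflinks and Cuffnorm (versions not stated). As no build was named in the sources used here, no coordinates are printed. The files hold no read numbers. Where 2 libraries were both under 0.1 FPKM, their ratio took 1 modal value in 6.87% to 30.1% of genes, as whole reads would give, but transcript lengths are not in the files and reads were not recovered.

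Symbols came from 1981 rows of the supplementary table, whose values per tissue, raised to at least 1, matched 1 identifier to 5 significant digits. Rows with under 3 values above 1 FPKM or a date for a symbol were not used, and 328 rows were not analysed here. Its fold changes were not used. The RefSeq table matched 0 identifiers.

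The two-sided test was limma (version 3.58.1, R 4.3.3) on log2 values with tissue and cat as terms, its trend option and p-values adjusted by Benjamini-Hochberg, and without the cat as an alternative. Both biopsies of a pair are from 1 animal per the labels. Deviations from the tissue means correlated across genes at 0.49 (Bart), 0.20 (Jerome) and 0.41 (Sadie), against -0.44 to 0.27 between cats. The lesion of Jerome correlated more with healthy mucosa of Sadie (0.27) than with its own. The model was tested on simulated data. Joins and ratios used pandas 2.3.3 and numpy 2.4.6 under Python 3.11.15, and figures matplotlib 3.10.9.

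The 4 genes and 16 lists were chosen with earlier results of these data known. Named genes were the 4 members, members of the lists with a symbol, and the 5 named identifiers most correlated with each member. No set test was run. Some genes that enter these counts or met this rule are not reported here.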

Additional observations from a re-analysis of the deposited data

How the results depend on the processing

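CD8A, GZMA, GZMB and TBX21 were higher in lesions under every alternative tried. Without the replicate block the log2 differences of 1.49 (CD8A), 1.79 (GZMA) and 2.46 (TBX21) no longer passed (adjusted p 0.242, 0.0935 and 0.135, limma). In that fit 0 of the 4 genes and 1588 in place of 3098 identifiers were called. At an unadjusted p under 0.05 stood 2 of the 4 genes and 4213 of 13327 identifiers. Without a filter on low values the same differences of 1.49, 1.79 and 2.46 had adjusted p of 0.0928, 0.0859 and 0.0859, with 0 of 4 genes and 0 identifiers called by limma (5019 at an unadjusted p under 0.05). With 0.1 FPKM added, GZMB passed (log2 difference 1.60), and the mean log2 ratios of GZMB over CD8A (0.11) and CD4 over CD8A (0.25) turned positive. Equal library medians, quantile normalization, no trend and 1 FPKM added changed no call of the 4 genes.

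With the block, leaving out 1 cat gave log2 differences of 1.26 to 1.61 for CD8A, 1.64 to 1.88 for GZMA, 0.91 to 1.93 for GZMB and 2.26 to 2.62 for TBX21. Without the block, leaving out the lesion of Bart, Jerome or Sadie gave 2.20, 1.09 and 1.19 for CD8A, 2.16, 1.45 and 1.76 for GZMA, and 3.26, 2.07 and 2.04 for TBX21. Leaving out the healthy library of Bart, Jerome or Sadie gave 0.91, 1.67 and 1.91 for CD8A, 1.27, 2.22 and 1.89 for GZMA, and 1.68, 3.01 and 2.68 for TBX21. GZMB ranged from 0.07 to 2.49 in these 6 fits. Of these 9 fits, 1 kept GZMA and TBX21 past the threshold, that without Bart, and none kept CD8A. With the block and without Bart, Jerome or Sadie, CD8A had an adjusted p of 0.0524, 0.0814 and 0.110. Between 0 and 2 of the 4 genes were called. With the block 1032 identifiers were called without Bart, 97 without Jerome and 0 without Sadie (3648 at an unadjusted p under 0.05), and without the block 1435, 655 and 1 without their lesion and 898, 132 and 9 without their healthy library. The mean log2 ratios without 1 cat ranged from 0.02 to 0.62 for GZMA, -0.59 to 0.32 for GZMB, 0.64 to 1.36 for TBX21 and -0.26 to 0.26 for CD4, each over CD8A. For CD8A they ranged from -0.15 to 0.16 over CD3E, -0.98 to -0.16 over CD3D and -1.46 to -0.29 over CD3G. Of the 73 list genes outside the lists of B cell, plasma cell, myeloid, epithelial and skeletal muscle markers, 61 were called with the block. By comparison, 23.2% of all identifiers were called in either direction with the block and 11.9% without it. Of named identifiers with a positive difference, 68.9% and 31.5% were called. The 61 include SERPINB6, which fell, and TOX, whose call is no support. Of the 61, 19 were also called without the block, 28 without Bart, and 0 without Jerome or without Sadie. At an unadjusted p under 0.05 were 64 of the 73 without Jerome and 67 without Sadie, against 3817 and 3648 of 13327 identifiers. With 3 cats, depth unknown and 1 biopsy per tissue, a difference that did not pass is not shown to be absent.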

Other observations

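Of 7 chemokines that attract effector T cells 3 had a symbol, and these 3 rose in FCGS lesions (2 without the block). Among identifiers with a symbol and a positive difference 68.9% were called, and 12.2% of all were called higher. Without the block these shares were 31.5% and 5.31%. CXCL9, a ligand of CXCR3, was the most abundant of the 3, at 1862, 3294 and 3023 FPKM in the lesions of Bart, Jerome and Sadie against 483, 1074 and 375 FPKM in healthy mucosa, and rose by 2.19 on the log2 scale (adjusted p = 0.0252). CCL4 and CCL5, chemokines made by activated T cells and macrophages, rose by 1.60 and 1.23 on the log2 scale, and CCL5 of Bart, at 72.3 FPKM in the lesion, lay below the healthy mucosa of Jerome (114 FPKM) and of Sadie (254 FPKM), as CD8A did. Of 10 genes of MHC class I presentation 2 had a symbol, TAPBP (tapasin) at 1.16 (adjusted p = 0.0488) and PSMB10, an immunoproteasome subunit, at 1.22 (adjusted p = 0.0709). Of 4 genes listed as granzyme inhibitors 1 had a symbol, SERPINB6, which fell from 211 ± 92.7 FPKM to 70.6 ± 46.8 FPKM (SD, n = 3, adjusted p = 0.0243). SERPINB9 had no symbol, and whether SERPINB6 acts on granzymes in this tissue was not tested.

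All 4 checkpoint receptors with a symbol, out of 6, rose in lesions (3 also without the block, where 31.5% of named identifiers with a positive difference were called, against 68.9% with it). Over all identifiers 12.2% were called higher with the block and 5.31% without it. PDCD1 (PD-1) measured 9.69, 24.3 and 16.4 FPKM in the lesions of Bart, Jerome and Sadie against 2.96, 7.68 and 3.23 FPKM in healthy mucosa (log2 difference 1.91, adjusted p = 0.0219). LAG3 rose by 2.27, CTLA4 by 2.26 and TNFRSF9 (4-1BB) by 2.01 on the log2 scale. Of 4 plasma cell markers with a symbol 3 rose, and SDC1, which epithelium also carries, was lower in the lesion of every cat (log2 difference -1.70, adjusted p = 0.0767). The shares with the block, 68.9% and 12.2%, stand beside this count as well.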
